A study of Mus musculus with 6 samples.

Results

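The genes described here encode the nuclear subunits of oxidative phosphorylation, and they were taken as every entry of the deposited count table whose symbol begins with Nduf followed by a, b, c, s or v and a number, with Sdha to Sdhd, with Uqcr, with Cox4 to Cox8, or with Atp5. The rule found 85 of the 22740 protein-coding genes in the table. Of these, 82 encode subunits or close isoforms of subunits of complexes I to V, and 3 (Atp5s, Atp5sl and Atp5l-ps1) share only the symbol. Complex I held 35 members, complex II 4, complex III 8, complex IV 20 and complex V 15. Ndufa4 and Ndufa4l2 were counted with complex IV, where the Ndufa4 protein is known to sit, although their symbols name complex I.

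RNA was sequenced from B16, a mouse melanoma cell line that makes pigment, described in the labels as BRAFV600E-negative and in the design text as B16-F10. The tested cells received 1 uM CX-5461 (CX5461 in the labels), known as an inhibitor of RNA polymerase I, for 3 days, and the control cells received the vehicle DMSO. Each group had 3 libraries, for 6 in all, from a single cell line in culture. The labels do not say whether replicates were separate cultures, so p-values measure the spread between these libraries, which may be technical.

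Oxidative phosphorylation is carried out in the inner mitochondrial membrane. Complexes I and II pass electrons from NADH and succinate to coenzyme Q, complex III passes them to cytochrome c, complex IV passes them to oxygen, and complex V uses the resulting proton gradient to make ATP. Complex II is made wholly from nuclear genes, whereas the other complexes combine nuclear subunits with a few encoded by mitochondrial DNA, and the 2 sets of subunits are assembled together. Many of the nuclear genes are known targets of the transcription factors NRF1, GABP and YY1.

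The libraries held 22908309, 17877481 and 20147277 counts with CX-5461, and 17735677, 20198979 and 17573990 counts with DMSO. All 7 melanocyte lineage markers examined were detected, with a summed level of 28250 to 30560 counts per 1e6 (CPM) with CX-5461 and 22080 to 22930 CPM with DMSO. The 6 markers of other cell types summed to 13.8 to 16.9 CPM with CX-5461 and 16.2 to 18.7 CPM with DMSO. Over all libraries, Cd68 had 1339 counts, Col1a1 566, Pecam1 20 and Epcam 10. Ptprc, of leukocytes, and Krt14, of keratinocytes, had 1 count each. Col1a1 stood at 2.416 to 3.134 CPM with CX-5461, against 5.082 to 7.916 CPM with DMSO. Genes of the mitochondrial chromosome held 2.70% to 3.40% of the reads counted with CX-5461 and 1.70% to 1.84% with DMSO. CX-5461 replicate 2 stood apart from the other libraries of its group on the second principal component, at -15.6 against 8.49 and 6.91. For 72 of the 78 members tested (92.3%) it was also the highest of the 3 CX-5461 libraries, against 4643 of all 12198 genes tested (38.1%). The medians and summed levels by complex are therefore given with and without that library. The part of that library, of the mitochondrial share and of the marker levels in the results was not tested.

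The promoters of 5 members that the results turn on are shown because they carry, or lack, the letters known to be bound by NRF1 and by GABP and other ETS factors. Uqcr11, Cox6a1 and Ndufa1 had the largest rises at 5 CPM or more in complexes III, IV and I, and Ndufs8 and Ndufa6 were the complex I subunits that fell. Each sequence runs 5′ to 3′ on the gene's own strand, from 250 bases before to 50 bases after the start of transcription in RefSeq on GRCm38.p6, and all 5 genes lie on the minus strand. They cover chr10:80406772-80407071 for Uqcr11, chr5:115348909-115349208 for Cox6a1, chrX:37191189-37191488 for Ndufa1, chr19:3912725-3913024 for Ndufs8 and chr15:82354242-82354541 for Ndufa6. Capitals mark matches, on either strand, to the long NRF1 motif (10 letters, any base at its sixth), to the shorter NRF1 motif GCATGCGC or to the ETS or GABP motif CCGGAAG.
Uqcr11: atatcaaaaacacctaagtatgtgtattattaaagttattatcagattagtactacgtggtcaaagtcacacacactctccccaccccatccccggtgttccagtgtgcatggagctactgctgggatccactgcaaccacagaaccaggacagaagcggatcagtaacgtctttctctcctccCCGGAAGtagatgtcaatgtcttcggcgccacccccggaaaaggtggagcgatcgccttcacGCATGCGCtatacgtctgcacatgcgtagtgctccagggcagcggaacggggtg
Cox6a1: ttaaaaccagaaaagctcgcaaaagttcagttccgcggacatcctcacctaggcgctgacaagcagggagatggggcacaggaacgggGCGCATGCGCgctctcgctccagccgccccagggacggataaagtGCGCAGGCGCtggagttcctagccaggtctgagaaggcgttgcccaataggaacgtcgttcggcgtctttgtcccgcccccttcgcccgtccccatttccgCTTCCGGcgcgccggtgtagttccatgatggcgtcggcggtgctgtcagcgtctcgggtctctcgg
Ndufa1: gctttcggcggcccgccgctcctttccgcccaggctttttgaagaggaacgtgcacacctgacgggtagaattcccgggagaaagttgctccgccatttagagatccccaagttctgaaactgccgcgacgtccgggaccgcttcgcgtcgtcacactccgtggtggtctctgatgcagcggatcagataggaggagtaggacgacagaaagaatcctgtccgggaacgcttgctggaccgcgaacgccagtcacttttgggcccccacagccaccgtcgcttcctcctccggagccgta
Ndufs8: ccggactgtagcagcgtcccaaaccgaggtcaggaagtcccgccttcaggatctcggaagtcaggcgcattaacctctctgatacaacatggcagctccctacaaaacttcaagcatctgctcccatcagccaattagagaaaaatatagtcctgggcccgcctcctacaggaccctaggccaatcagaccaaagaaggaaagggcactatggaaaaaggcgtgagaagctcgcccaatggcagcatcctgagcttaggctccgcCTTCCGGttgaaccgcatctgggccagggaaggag
Ndufa6: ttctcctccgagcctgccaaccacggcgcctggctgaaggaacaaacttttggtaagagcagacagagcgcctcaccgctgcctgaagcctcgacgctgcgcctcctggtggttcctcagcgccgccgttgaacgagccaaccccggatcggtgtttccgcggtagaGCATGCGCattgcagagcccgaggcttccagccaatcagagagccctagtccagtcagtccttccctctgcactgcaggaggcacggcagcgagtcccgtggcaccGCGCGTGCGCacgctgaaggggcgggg
The Cox6a1 window held 2 matches to the long NRF1 motif, the first with GCATGCGC inside it, and 1 to CCGGAAG, the Uqcr11 window held 1 to GCATGCGC and 1 to CCGGAAG, and the Ndufa1 window held none of these. The windows of both genes that fell also held matches, 1 to CCGGAAG in Ndufs8, and 1 to the long NRF1 motif with 1 to GCATGCGC in Ndufa6.

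RefSeq promoters were matched for 66 of the 85 members. The long NRF1 motif was found in 17 of the 66 (25.8%), against 11.96% of the 9105 tested genes with a promoter and 5.19% of all 27025 genes with one. The shorter GCATGCGC, whose letters can lie within the longer motif, was found in 10 (15.2%), against 6.30% and 3.05%. AAGATGGC, bound by YY1, was found in 9 (13.6%), against 5.37% and 3.19%, and CCGGAAG in 16 (24.2%), against 20.5% and 9.93%. The TATA box letters TATAAA were found in 7 (10.6%), against 8.24% and 15.7%. The 66 promoters, unlike the 9105, include untested members, and TATAAA lay in those of the untested Cox7b2 and Cox8b. It lay in 2 of 43 promoters of members that rose, and in 3 of 19 of those that fell or did not pass. The long NRF1 motif lay in 11 of 43 promoters of members that rose (25.6%), and in 6 of 19 promoters of members that fell or did not pass (31.6%). These matches are descriptions of letters, with no test, and say nothing of binding in B16 cells.

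Most of the nuclear subunits were modestly higher with CX-5461, with the largest median rise in complex IV. Of the 85 members, 78 had enough counts to be tested, and 7 did not: Cox4i2, Cox6b2, Cox7a1, Cox7b2, Cox8b, Cox8c and Atp5l-ps1, the last with 1 to 9 counts per library. With edgeR's quasi-likelihood test and an adjusted p below 0.05 over all genes, 50 rose (64.1%), 7 fell (8.97%) and 21 did not pass. The falls include Cox6a2, which had enough counts for the test only with DMSO. Over all 12198 genes tested, 37.2% rose and 36.5% fell, or 73.7% in either direction, so most genes were called, and the members' share of rises stood above, and their share of falls below, that background. The libraries of the 2 groups did not overlap for 56 of the 78 members, against 76.2% of all genes tested. In bulk RNA, a change in the mix of cells and a change in RNA per cell cannot be told apart.

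The rises were small. The median log2 change of the 78 members was 0.23, and 0.16 without CX-5461 replicate 2, against -0.005 over all genes tested. Counting the 76 tested subunits alone, 66 had a positive change, 56 lay between the lower and upper quartiles of all genes tested, -0.34 and 0.44, while 19 lay above the upper and 1 below the lower quartile. Called changes of at least 2-fold numbered 1 upward, Uqcr11, and 1 downward, Cox6a2. Since Cox6a2 entered the test through its DMSO libraries alone, a fall was the only call it could give. Rises of at least 1.5-fold numbered 9. Without CX-5461 replicate 2 these counts were 0 upward, 1 downward and 5, and Uqcr11 also lay just under 2-fold with library totals only and with a GC offset. Without CX-5461 replicate 2 the test called 46 members higher and 9 lower, among them 46 of the 50 rises and 7 of the 7 falls called with all libraries. In all 17 alternative settings, 41 of the 50 rises and 4 of the 7 falls were called again. These counts leave out Cox6a2, which a filter of 1 CPM in 3 libraries removed, and Atp5b, which is among the 50 most abundant genes removed in another setting.

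**Figure D1:**
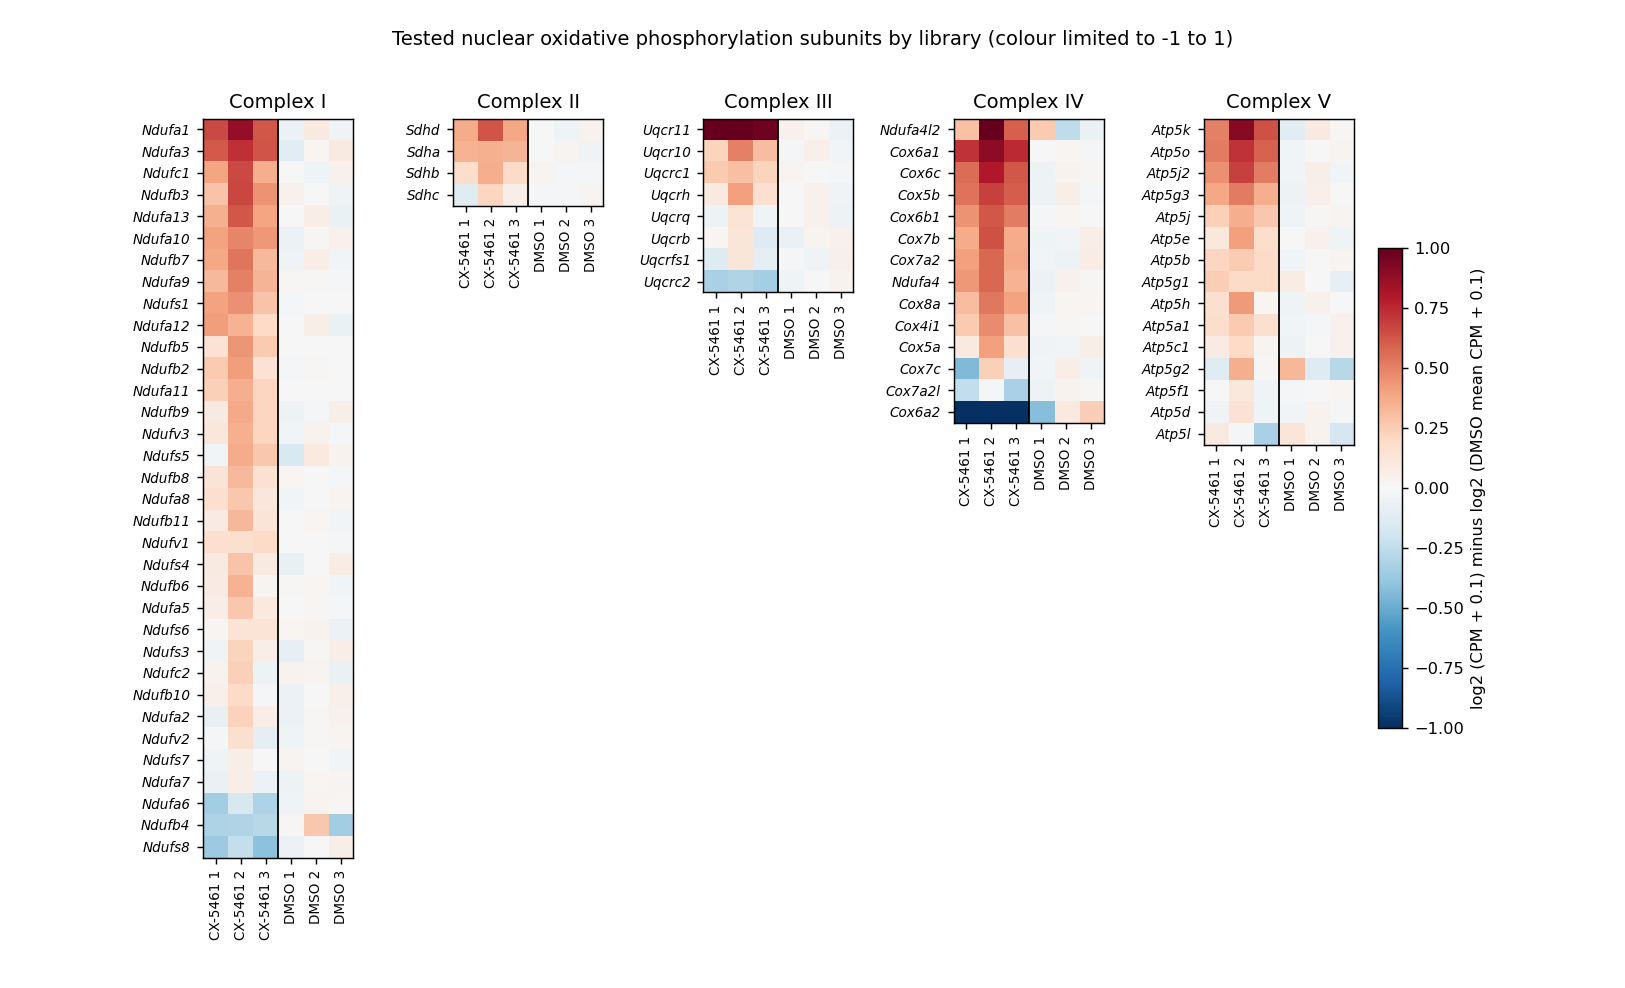
Level of the tested subunits in each library as log2 (CPM + 0.1) minus that of its DMSO mean, with CX-5461 libraries left of DMSO libraries and subunits grouped by complex, colours ending at -1 and 1. Most of complexes I, II, IV and V is higher in the CX-5461 libraries, CX-5461 replicate 2 is the highest CX-5461 column for most of them, and Cox6a2, Uqcrc2, Ndufs8 and Ndufa6 run the other way.

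Calls in each complex are set beside all genes tested, of which 73.7% were called in either direction, 37.2% higher and 36.5% lower. In every complex the share of rises lay above, and the share of falls below, those of all genes tested. Since most genes were called and some complexes hold few members, the number that moved does not by itself set a complex apart. In complex IV, 11 of 14 tested members rose and 2 fell, Cox6a2 among them. The median log2 change was 0.46, or 0.38 without CX-5461 replicate 2. In complex II, 3 of 4 rose and none fell, with a median of 0.30, or 0.26 without that library. In complex V, 10 of 15 rose and none fell, with a median of 0.21, or 0.16 without it. Complex I followed with 22 of 35 higher and 2 lower, at a median of 0.20, or 0.14 without it. Complex III had 4 of 8 higher and 1 lower, at a median of 0.12, or 0.04 without it. Complex IV had the highest median under all 17 alternative settings, and complex III the lowest under 15 of them. The differences between complexes were not tested.

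Summed over members, complex IV reached 2550, 2947 and 2575 CPM with CX-5461, against 1991, 2052 and 2062 CPM with DMSO, a ratio of means of 1.32, or 1.26 without CX-5461 replicate 2. Complex II summed to 764.7, 854.1 and 781.5 CPM with CX-5461, against 659.9, 653.0 and 653.3 CPM with DMSO, a ratio of 1.22, or 1.18 without that library. Complex III summed to 1109, 1254 and 1121 CPM with CX-5461, against 1067, 1083 and 1065 CPM with DMSO, a ratio of 1.08, or 1.04 without it. No CX-5461 sum of these complexes lay below a DMSO sum, and for complex III the gap between the groups was small beside the distance of CX-5461 replicate 2 from its group. Complex I averaged 3060 ± 205.6 CPM with CX-5461 and 2567 ± 36.0 CPM with DMSO (SD, n = 3 each), a ratio of 1.19, or 1.15 without CX-5461 replicate 2. Complex V averaged 3676 ± 163.6 CPM with CX-5461 and 3115 ± 56.6 CPM with DMSO, a ratio of 1.18, or 1.15 without it. These sums are led by the abundant members, whereas the medians weigh every tested member alike.

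**Figure D2:**
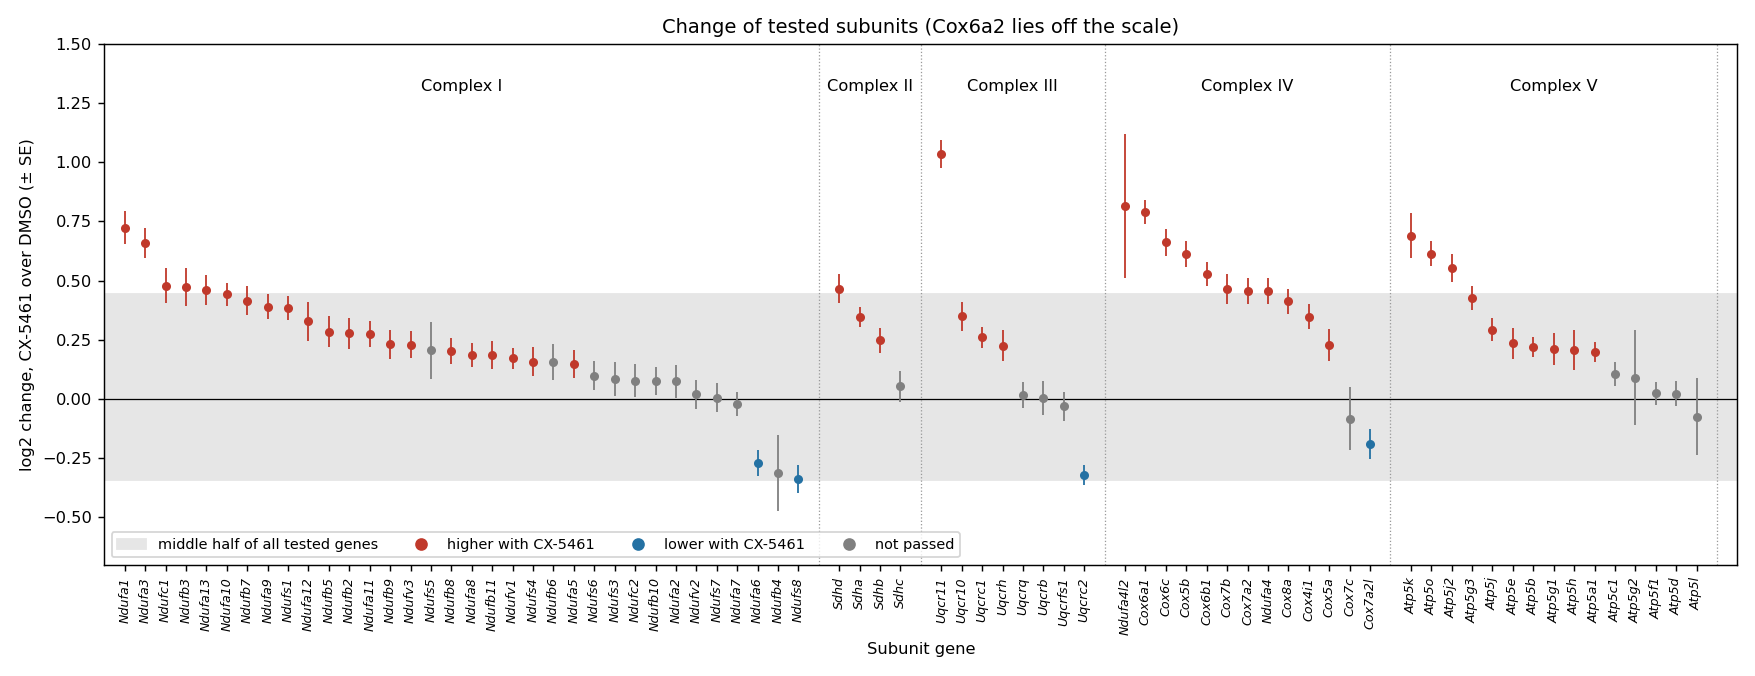
Log2 change (CX-5461 minus DMSO) of the tested subunits with standard errors, grouped by complex, with the range between the quartiles of all genes tested as a grey band. Most members of complex IV lie above 0.35, those of complex III spread from -0.32 for Uqcrc2 to 1.04 for Uqcr11, and Cox6a2, with 3 counts in all with CX-5461, is off the scale and not drawn.

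Complex IV, cytochrome c oxidase, is built around 3 mitochondrially encoded subunits and a shell of small nuclear ones, several of which exist as a common form and a form restricted to certain tissues. Of the 11 common forms in the table, 10 rose. Cox6a1, the common form of the subunit near the dimer interface (chr5:115345642-115348981, minus strand), stood at 221, 249 and 225 CPM with CX-5461, against 134, 136 and 132 CPM with DMSO. All CX-5461 libraries lay far above all DMSO libraries, and the log2 change was 0.79 ± 0.05 (SE; adjusted p = 1.556e-09), or 1.73-fold. Cox6c stood at 193.3, 228.6 and 201.8 CPM with CX-5461, against 126.9, 134.3 and 132.7 CPM with DMSO. The groups did not overlap and the change was 0.66 ± 0.06 (adjusted p = 5.686e-08). Cox5b, which binds zinc on the matrix side, stood at 73.5, 80.9 and 76.7 CPM with CX-5461, against 48.6, 52.3 and 50.04 CPM with DMSO. Its rise was 0.61 ± 0.06 (adjusted p = 7.643e-08). Cox6b1, on the side of cytochrome c, stood at 167, 188 and 175 CPM with CX-5461, against 122, 124 and 122 CPM with DMSO, again without overlap, and rose by 0.53 ± 0.05 (adjusted p = 1.327e-07).

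Cox4i1, the most abundant complex IV member per kilobase of transcript, rose less. It stood at 497, 575 and 508 CPM with CX-5461, against 411, 416 and 413 CPM with DMSO. The groups were apart, with CX-5461 replicate 2 highest, and the change was 0.35 ± 0.05 (adjusted p = 2.106e-05). Cox5a, a partner of Cox4i1 in early assembly, changed by 0.23 ± 0.07 (adjusted p = 0.006624), or 0.13 without CX-5461 replicate 2, and shares 32.1% of its 50-base words with other genes. Cox7b, Cox7a2 and Cox8a rose by 0.47 ± 0.06, 0.46 ± 0.06 and 0.41 ± 0.05. Ndufa4, first described as a complex I protein, stood at 336, 371 and 316 CPM with CX-5461 and at 239, 257 and 251 CPM with DMSO. It too was higher in every CX-5461 library, by 0.45 ± 0.06 (adjusted p = 2.324e-06). Cox7c was the common form that did not pass, at 10.4, 16.8 and 13.4 CPM with CX-5461 and 13.9, 14.9 and 13.8 CPM with DMSO. Its CX-5461 libraries lay on both sides of the DMSO libraries, and 53.0% of its transcript's 50-base words also occur in other genes, so its counts are uncertain. Without CX-5461 replicate 2 it was called lower, at -0.26.

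The tissue-restricted forms were near or at 0. Cox6a2, the heart and skeletal muscle form of Cox6a1 (chr7:128205435-128206387), had 1, 2 and 0 counts with CX-5461, against 16, 27 and 26 counts with DMSO. The groups did not overlap, with 3 counts in all with CX-5461 and 69 with DMSO. The pooled ratio of DMSO over CX-5461 was 24.0, with a 95% exact interval of 7.87 to 119 that covers counting error only. Cox6a2 entered the test through its DMSO libraries alone, its adjusted p was 3.404e-06, and its fitted change depends on the prior count. Even with DMSO its level was 1.78 ± 0.44 CPM per kilobase of transcript (RPKM), against 234.6 ± 3.74 RPKM for Cox6a1, and with CX-5461 the levels were 0.0785 ± 0.0853 and 405.5 ± 26.6 RPKM (SD, n = 3). Cox4i2, Cox6b2, Cox7b2, Cox8b and Cox8c had no count in any library, where a floor of 3 counts allows up to 0.135 to 0.173 CPM per library. Cox7a1, the muscle form of Cox7a2, stood at 0.180, 0.173 and 0.253 CPM with CX-5461 and at 0.164, 0.241 and 0.279 CPM with DMSO, near that floor in both groups.

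Ndufa4l2, the paralogue of Ndufa4, was low, at 1.17, 2.42 and 1.47 CPM with CX-5461, against 1.15, 0.772 and 0.894 CPM with DMSO. The lowest CX-5461 value lay just above the highest DMSO value. Its change of 0.81 ± 0.30 (adjusted p = 0.02444) did not pass without CX-5461 replicate 2 (0.49), DMSO replicate 2 (0.68) or DMSO replicate 3 (0.78), and its adjusted p ranged from 0.006656 to 0.1502 over all alternatives. Cox7a2l, known for joining complexes III and IV into supercomplexes, stood at 196, 230.5 and 186 CPM with CX-5461, against 225, 239 and 235 CPM with DMSO. CX-5461 replicate 2 lay within the DMSO range and the other CX-5461 libraries lay below it. The change was -0.19 ± 0.06 (adjusted p = 0.01452), -0.29 without CX-5461 replicate 2 and -0.10 with an offset for gene span, where it did not pass, nor did it without DMSO replicate 2 or CX-5461 replicate 3. Over all alternatives its adjusted p ranged from 2.341e-06 to 0.1386.

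Per kilobase, the order of the complex IV members with DMSO ran from Cox4i1 at 555.2 RPKM through Ndufa4 at 408.0, Cox8a at 340.0, Cox6c at 261.0, Cox7a2 at 247.6, Cox6a1 at 234.6, Cox7a2l at 216.3 and Cox7b at 213.5 to Cox6b1 at 198.5 and Cox5a at 187.3 RPKM. With CX-5461, Cox6c at 413.3 RPKM kept its place above Cox7a2 at 339.9 RPKM. Cox6a1 at 405.5 RPKM now also stood above Cox7a2, and Cox7a2l at 189.8 RPKM stood below Cox5a at 219.5 RPKM. These levels use 1 annotated transcript per gene, and a different transcript would shift a gene's level in both groups alike.

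**Figure D3:**
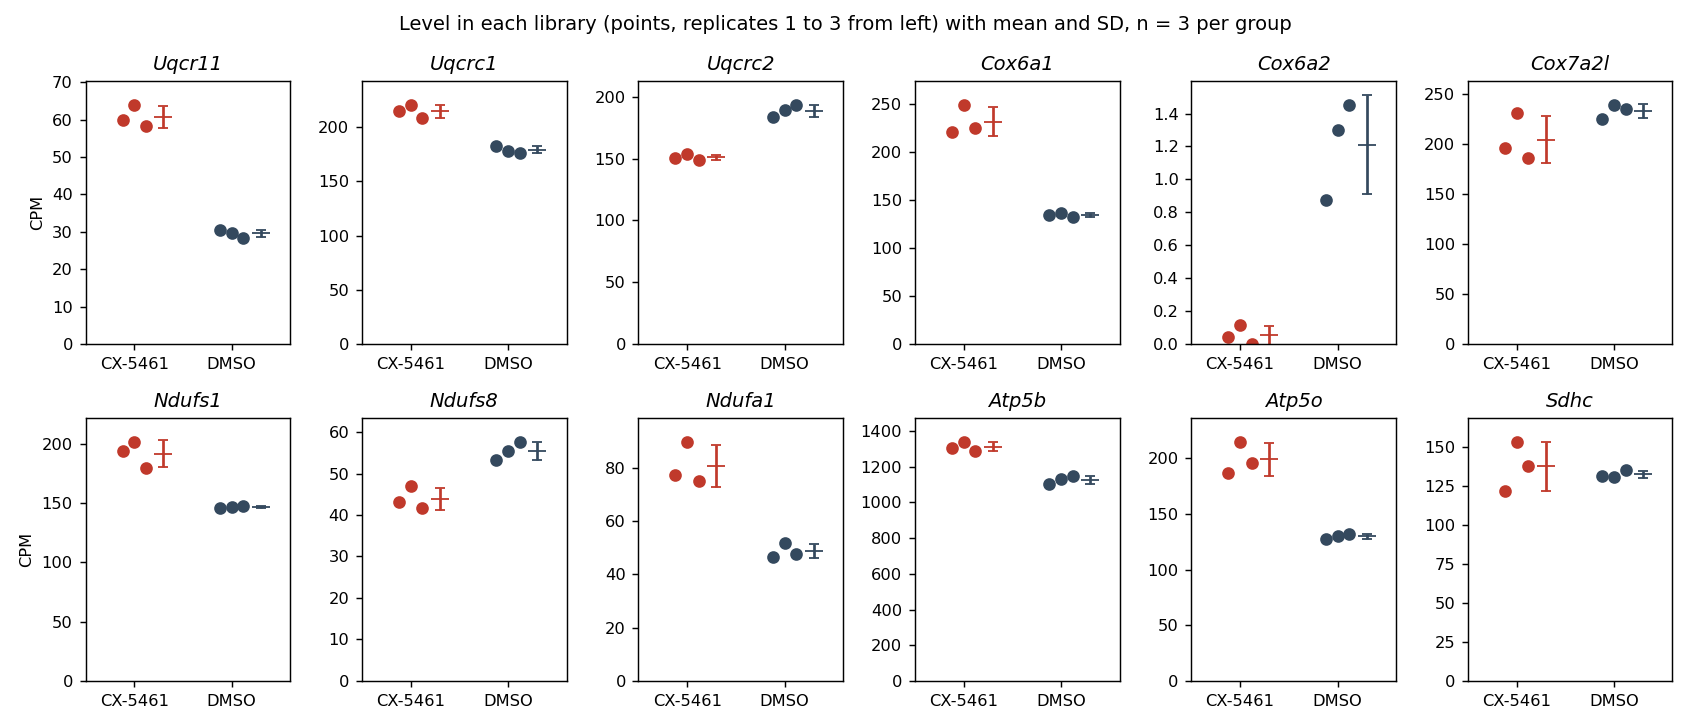
CPM of 12 members in each library, with CX-5461 points left of DMSO points, each group's mean and SD beside them and every vertical axis starting at 0. Uqcr11, Uqcrc1, Cox6a1, Ndufs1, Ndufa1, Atp5b and Atp5o are higher in every CX-5461 library, Uqcrc2, Ndufs8 and Cox6a2 are lower in every one, and the groups of Cox7a2l and Sdhc overlap.

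Complex III, the cytochrome bc1 complex, held both the largest rise among the members and a fall in one of its pair of core proteins. Uqcr11, its smallest subunit (chr10:80402997-80406830, minus strand), stood at 60.0, 63.9 and 58.3 CPM with CX-5461, against 30.5, 29.8 and 28.5 CPM with DMSO. Every CX-5461 library lay far above every DMSO library, and the log2 change was 1.04 ± 0.06 (adjusted p = 4.731e-10), or 2.05-fold. For comparison, 11.7% of all genes tested rose by 2-fold or more. Uqcr10 stood at 134, 163 and 142 CPM with CX-5461, against 113, 119 and 112.5 CPM with DMSO. It rose by 0.35 ± 0.06 (adjusted p = 0.0001212), and Uqcrh, the acidic hinge protein that binds cytochrome c1, rose by 0.23 ± 0.07 (adjusted p = 0.006439), or 0.12 without CX-5461 replicate 2.

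The core proteins moved apart. Uqcrc1 (chr9:108936633-108949623) stood at 214, 220.2 and 208.5 CPM with CX-5461, against 183, 178 and 176 CPM with DMSO. Uqcrc2 (chr7:120635176-120659524) stood at 151, 153 and 149 CPM with CX-5461, against 183, 189 and 193 CPM with DMSO. Neither gene's groups overlapped: Uqcrc1 rose by 0.26 ± 0.04 (adjusted p = 5.807e-05) and Uqcrc2 fell by 0.32 ± 0.04 (adjusted p = 7.249e-06). Of the 50-base words of Uqcrc2, 24.8% also occur in another gene, against 0.0% for Uqcrc1. The ratio of Uqcrc1 to Uqcrc2 counts within a library was 1.42, 1.44 and 1.40 with CX-5461, against 0.997, 0.943 and 0.911 with DMSO. Uqcrfs1, the Rieske iron-sulfur protein, stood at 140.2, 167 and 144 CPM with CX-5461 and 152, 149.9 and 159 CPM with DMSO. Its groups overlapped and it did not pass (-0.03, adjusted p = 0.6512), but without CX-5461 replicate 2 it was called lower, at -0.12, and its adjusted p ranged from 0.01337 to 0.9396 over all alternatives. Uqcrq, at 0.02, and Uqcrb, at 0.00 with shared 50-base words in 43.4% of its transcript, did not pass, although Uqcrb was called higher, at 0.18, with an offset for GC content.

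Complex I, NADH dehydrogenase, has a matrix arm that takes electrons from NADH and a membrane arm that pumps protons, and its accessory subunits can be grouped by the part of the complex they attach to. Of the 7 core subunits in the table, 3 rose, 1 fell and 3 did not pass. Their median was 0.08, or 0.01 without CX-5461 replicate 2. Of the 28 accessory subunits, 19 rose and 1 fell, and 8 were not called, at a median of 0.22, or 0.15 without it. All 4 accessory subunits beside the mitochondrially encoded ND1, namely Ndufa1, Ndufa3, Ndufa8 and Ndufa13, rose, with a median of 0.56, or 0.49 without CX-5461 replicate 2. Of those at the distal end of the membrane arm beside ND5, 5 of 5 rose, with a median of 0.28, or 0.20 without it. Of the remaining groups, 3 of 5 rose beside ND2 at a median of 0.27, 2 of 5 beside ND4 at 0.16, 3 of 5 on the NADH-oxidising tip at 0.16 and 1 of 3 between these parts at -0.02. Without CX-5461 replicate 2 these medians were 0.22 beside ND2, 0.05 beside ND4, 0.09 on the tip and -0.07 between these parts. Ndufa5, the accessory subunit of the part that passes electrons to coenzyme Q, rose by 0.15. Without that library its change was 0.08 and did not pass.

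Ndufs1, which carries iron-sulfur clusters of the NADH tip, stood at 194, 202 and 179.5 CPM with CX-5461 and at 146, 147 and 148 CPM with DMSO. It rose by 0.38 ± 0.05 (adjusted p = 3.817e-06). Ndufv1, which binds NADH and the flavin, stood at 120.3, 119 and 122 CPM with CX-5461 and at 107, 107 and 106 CPM with DMSO, with little spread in either group. Its rise of 0.17 ± 0.04 (adjusted p = 0.002359) was 0.10 when only library totals were used for scaling, where it did not pass (adjusted p from 0.0001041 to 0.05626 over all alternatives). Ndufv2, Ndufs3 and Ndufs7, at 0.02, 0.08 and 0.01, did not pass, although Ndufv2 was called higher with a GC offset (0.15) and Ndufs3 with the gene span offset (0.16).

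Ndufs8, a core subunit that holds iron-sulfur clusters on the path to coenzyme Q (chr19:3908863-3912774, minus strand), stood at 43.1, 46.9 and 41.8 CPM with CX-5461, against 53.2, 55.4 and 57.7 CPM with DMSO. Its CX-5461 libraries all lay below its DMSO libraries, and it fell by 0.34 ± 0.06 on the log2 scale (adjusted p = 0.0001175). Ndufa6, an accessory subunit of the LYR family (chr15:82350140-82354322, minus strand), stood at 71.0, 80.7 and 72.8 CPM with CX-5461, against 87.7, 91.8 and 90.9 CPM with DMSO. It fell by 0.27 ± 0.06 (adjusted p = 0.0003983), again without overlap.

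Among the accessory subunits that rose, Ndufa1, needed for building the membrane arm (chrX:37187588-37191163, minus strand), stood at 77.3, 89.9 and 75.02 CPM with CX-5461, against 46.7, 51.9 and 47.6 CPM with DMSO. Its change was 0.72 ± 0.07 (adjusted p = 1.559e-07), or 1.65-fold, with no overlap. Ndufa3 stood at 55.4, 60.2 and 55.9 CPM with CX-5461, against 33.4, 36.6 and 38.5 CPM with DMSO, and rose by 0.66 ± 0.06 (adjusted p = 1.895e-07). Ndufc1 rose by 0.48 ± 0.08 (adjusted p = 3.586e-05). At the other end, Ndufb4 stood at 4.01, 4.03 and 4.10 CPM with CX-5461 and at 5.03, 6.03 and 3.91 CPM with DMSO. Its DMSO libraries spread around the CX-5461 values and it did not pass (-0.31 ± 0.16, adjusted p = 0.09295), and 37.0% of its 50-base words occur in other genes. It was called lower with library totals only (-0.39), with a GC offset (-0.38) and without DMSO replicate 3 (-0.46).

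Complex II, succinate dehydrogenase, also belongs to the tricarboxylic acid cycle, and consists of a catalytic pair, Sdha and Sdhb, and a pair of membrane anchors, Sdhc and Sdhd. Sdha, the flavoprotein that oxidises succinate, stood at 293, 294 and 290.2 CPM with CX-5461, against 231, 235 and 224 CPM with DMSO. The CX-5461 libraries lay close together and above all DMSO libraries, by 0.35 ± 0.04 (adjusted p = 1.84e-06). Sdhb, the iron-sulfur subunit, stood at 204, 232.5 and 206 CPM with CX-5461, against 184, 178 and 179 CPM with DMSO. It rose by 0.25 ± 0.05 (adjusted p = 0.0005126). Sdhd stood at 146, 174 and 148 CPM with CX-5461, against 113, 109.6 and 116 CPM with DMSO, and rose by 0.47 ± 0.06 (adjusted p = 6.455e-06).

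Sdhc, the other anchor, stood at 122, 153 and 138 CPM with CX-5461, against 131, 130.5 and 135 CPM with DMSO. Its CX-5461 libraries lay below the narrow DMSO range in replicate 1 and above it in replicates 2 and 3, and its change was 0.05 ± 0.07 (adjusted p = 0.4727). It was -0.03 without CX-5461 replicate 2, but was called higher without CX-5461 replicate 1 (0.13) and with the offset for gene span (0.14), with an adjusted p from 0.0423 to 0.9989 over all alternatives. The ratio of Sdhd to Sdhc counts was 1.20, 1.14 and 1.07 with CX-5461, against 0.863, 0.840 and 0.855 with DMSO. For this ratio and that of Uqcrc1 to Uqcrc2, chosen after the genes' values were seen, the libraries of the groups did not overlap, and the log2 differences were 0.41 and 0.58. Each two-sided exact permutation p was 0.1, the smallest that 3 against 3 libraries can give, and stayed 0.1 after adjustment over the ratios tested. Once the groups lie apart no other p is possible, so this test adds nothing to that separation.

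Complex V, ATP synthase, has a catalytic F1 head, a peripheral stalk that holds the head still and a membrane part with the rotating c ring. Atp5b, the catalytic beta subunit and the most abundant member in CPM, stood at 1308, 1341 and 1289 CPM with CX-5461, against 1105, 1129 and 1147 CPM with DMSO. The groups did not overlap, and the change was 0.22 ± 0.04 (adjusted p = 0.0001818). Atp5a1, the alpha subunit, stood at 708, 752 and 699.5 CPM with CX-5461, against 615, 621 and 645 CPM with DMSO. It rose by 0.20 ± 0.04 (adjusted p = 0.000777), close to its partner in the head. Of the 5 members of the head and central stalk, 3 rose, and Atp5c1 and Atp5d, at 0.10 and 0.02, did not pass, although Atp5c1 was called higher when CX-5461 replicate 3 was left out (0.13) or gene span was offset (0.19).

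The larger rises in complex V lay outside the head. Atp5o, which joins the peripheral stalk to the head, stood at 186, 215 and 195 CPM with CX-5461, against 128, 129.8 and 132 CPM with DMSO. The CX-5461 libraries lay far above the others, by 0.61 ± 0.05 (adjusted p = 4.744e-08), though 50.3% of its 50-base words occur in other genes. Atp5k, the small e subunit of the membrane part, stood at 30.2, 40.1 and 33.1 CPM with CX-5461, against 19.7, 22.6 and 21.4 CPM with DMSO. It rose by 0.69 ± 0.10 (adjusted p = 9.891e-06), and Atp5j2, the f subunit, rose by 0.55 ± 0.06 (adjusted p = 5.781e-07). Atp5f1, another member of the peripheral stalk, did not pass, at 0.02, with 38.7% of its words shared, and was called higher with offsets for GC content (0.28) or gene span (0.12).

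The c ring protein is made from 3 genes that give the same mature subunit. Atp5g3 stood at 295, 322 and 289.9 CPM with CX-5461, against 217, 232.5 and 225 CPM with DMSO. It was higher in every CX-5461 library, by 0.43 ± 0.05 (adjusted p = 1.301e-06), and was the most abundant of the 3. Atp5g1 stood at 30.9, 29.8 and 29.9 CPM with CX-5461, against 27.4, 26.2 and 24.6 CPM with DMSO. Its groups lay apart by a narrow margin, and the change of 0.21 ± 0.07 (adjusted p = 0.01055) did not pass with library totals only (0.14) or without DMSO replicate 3 (0.17), with an adjusted p from 0.001176 to 0.08145 over all alternatives. Atp5g2 stood at 2.57, 3.62 and 2.83 CPM with CX-5461, against 3.55, 2.56 and 2.29 CPM with DMSO. Its groups overlapped and it did not pass (adjusted p = 0.6981), and every 50-base word of its transcript occurs in another gene.

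Of the genes that share only the Atp5 symbol, both that were tested fell. Atp5s, known as coupling factor B, stood at 13.4, 14.8 and 11.3 CPM with CX-5461, against 20.7, 25.4 and 22.3 CPM with DMSO. All CX-5461 libraries were lower, and it fell by 0.80 ± 0.10 on the log2 scale (adjusted p = 4.978e-06). Atp5sl, now named Dmac2 for its part in complex I assembly, fell by 0.26 ± 0.09 (adjusted p = 0.01542), a call lost with the offset for gene span (-0.19), with an adjusted p from 0.003258 to 0.07008 over all alternatives. Without these 2, the tested subunits numbered 50 higher, 5 lower and 21 not passed.

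Processed copies of many of these genes lie elsewhere in the genome, and reads from a gene and its copies may have been split by the counting. The 13 tested members with at least 30% of their 50-base words in other genes numbered 4 higher, none lower and 9 not passed, at a median of 0.09, or 0.01 without CX-5461 replicate 2. The other 65 numbered 46 higher, 7 lower and 12 not passed, at a median of 0.25, or 0.20 without it. The members are also short, with a median genomic span of 7.37 kb against 24.2 kb for all genes tested, and an offset that removes the trend of the change with span raised their median to 0.30 and the count of rises to 59.

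Other genes of the pathway, from lists chosen with earlier results of these data known, are given beside the shares of all genes tested, 37.2% higher and 36.5% lower, with no test of a difference. All 10 tested mitochondrially encoded subunits, the partners of the nuclear ones, rose, with a median of 0.99, above the median of any nuclear complex. Of these, mt-Co2, mt-Co3 and mt-Atp6 were low, with means of 1.75, 1.46 and 1.77 CPM with CX-5461 and 0.986, 0.765 and 0.850 CPM with DMSO. By comparison, mt-Co1 averaged 13870 and 9456 CPM. Counts of mt-Nd3, mt-Nd4l and mt-Atp8 were too low to be tested. How such reads were counted is not given, so the low levels are uncertain. In the list of partners outside the naming rule, 1 of 7 rose and 2 fell, at a median of 0.05, or -0.02 without CX-5461 replicate 2. Of these, Cyc1, the cytochrome c1 of complex III, had a change of -0.09 (adjusted p = 0.06458), 2010107E04Rik, a small ATP synthase protein, rose by 0.48 (adjusted p = 3.36e-06), and Higd1a, a complex IV partner induced by low oxygen, fell by 0.47. Of 41 tested assembly factors, 11 rose, 12 fell and 18 did not pass, at a median of -0.02. Among them Pet100, for complex IV, rose by 0.74, whereas Ndufaf4, for complex I, fell by 0.95 and Ttc19, for complex III, fell by 0.69.

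The list for the tricarboxylic acid cycle, which supplies NADH and succinate, also held genes of pyruvate dehydrogenase, which feeds the cycle. In this joint list 9 of 18 tested genes were higher and 3 lower, at a median of 0.12, with Ogdh at 1.01 and, among the falls, Dld at -0.41. Of the pyruvate dehydrogenase genes, Pdhb fell by 0.32, and Pdha1, Dlat and Pdhx, at -0.06, -0.07 and -0.01, did not pass. A median of the cycle genes without them was not computed. Electron carriers and coenzyme Q synthesis had 7 of 17 higher and 4 lower, at a median of 0.06, or 0.01 without CX-5461 replicate 2. Within that list Adck3 (Coq8a), a coenzyme Q synthesis kinase, rose by 2.20 ± 0.07, Coq3 fell by 0.91, and cytochrome c (Cycs), at -0.18, did not pass. Mitochondrial ribosomal proteins, which translate the mitochondrially encoded subunits, had 20 of 76 higher and 31 lower, at a median of -0.07. Among 10 regulators of nuclear subunit genes, 2 rose and 6 fell. Nrf1 and Gabpb1, which encode NRF1 and a subunit of GABP, fell by 0.42 and 0.78. Esrra, a nuclear receptor of mitochondrial genes, rose by 0.47, and Ppargc1a rose by 0.41, or 0.13 with the gene span offset. Whether these changes bear on the subunit genes was not tested.

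**Figure D4:**
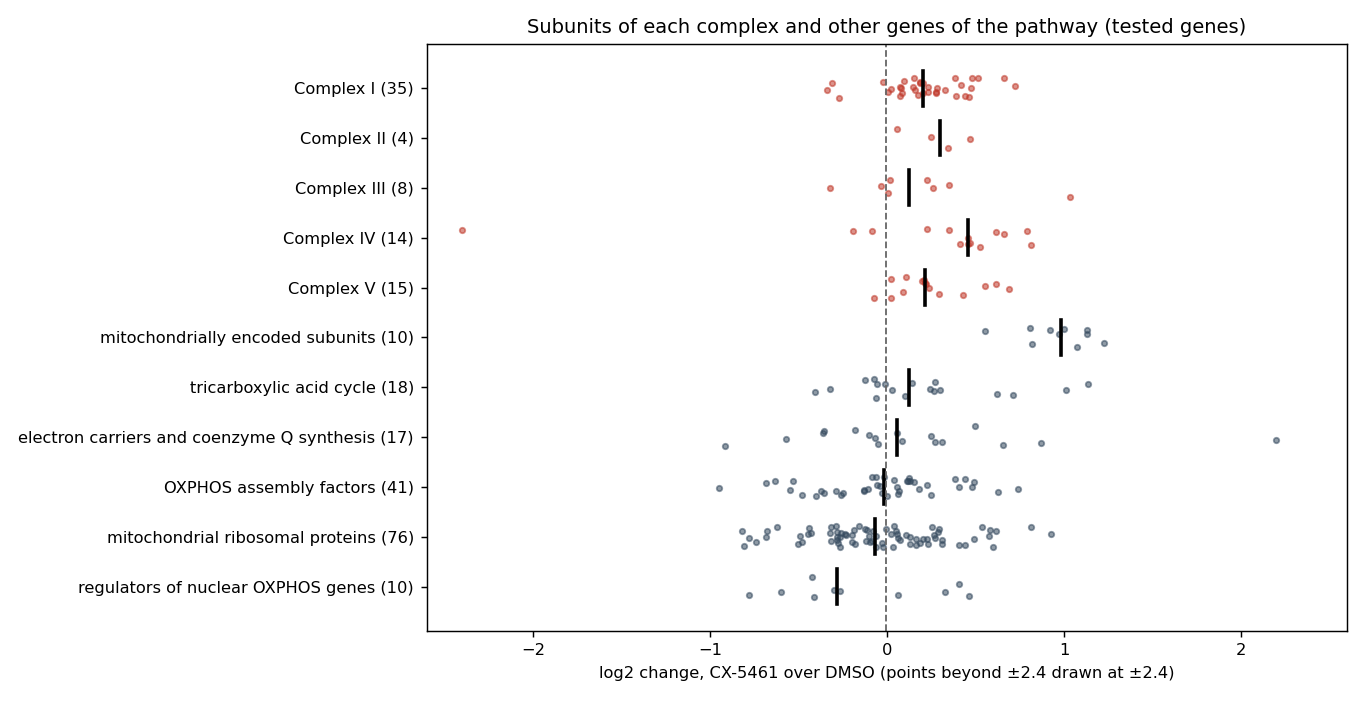
Log2 change (CX-5461 minus DMSO) of each tested gene in complexes I to V and in the other pathway lists, with a bar at each median and a dashed line at the median of all genes tested; Cox6a2 is drawn at the edge of the axis. The median is 0.46 for complex IV and 0.12 for complex III, 0.99 for the mitochondrially encoded subunits, -0.02 for assembly factors and -0.07 for mitochondrial ribosomal proteins.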

How the data were processed

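RNA sequencing libraries of B16 cells, 3 with CX-5461 and 3 with DMSO, were compared through 1 deposited table of whole-number counts of reads per gene, which the authors had not normalized, as its unequal column totals show. Per the submitters' processing notes the builds were GRCm38 and mm10. How reads were aligned and counted, and whether by strand, is not given in the sources used here, so reads of overlapping genes and near-identical copies may be misassigned. The members and gene lists were chosen with earlier results of these data known.

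Genes were kept by filterByExpr (minimum count 10) of edgeR 4.0.16 in R 4.3.3, scaled with TMM factors (0.970 to 1.03) and tested with the quasi-likelihood F test on an intercept and treatment, two-sided, with Benjamini-Hochberg adjustment over 12198 genes and a threshold of 0.05. All adjusted p-values come from this test, tried on simulated data, unless another is named. Log2 changes are CX-5461 minus DMSO, and the SE is the absolute change over the root of F. The common biological coefficient of variation was 4.86%. CPM use TMM-scaled totals, and RPKM divide these by the length of 1 annotated transcript. GENCODE annotation of GRCm38 gave coordinates, and 21919 identifiers matched it. The ratios were tested by exact permutation with scipy 1.17.1.

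Named were, per complex, the 4 called members with the largest change (at least 5 CPM in the higher group), all that fell, all of complex II, chosen core subunits and all isoform families. The values of 2 genes are not reported here, also in the plots that name genes. Other members are named beside them for their role, after their values were seen. Alternatives were RLE factors, library totals only, no filter, 1 CPM in 3 libraries, DESeq2 1.42.0, limma-voom (limma 3.58.1), a replicate block, offsets for GC content and gene span, leaving out the mitochondrial genes and the 50 most abundant ones, and each library left out. Counting intervals and floors cover counting error only.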

Additional observations from a re-analysis of the deposited data

How the results depend on the processing

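Over the 17 alternatives, the members called higher numbered 43 to 59, those called lower 5 to 9, and their median log2 change was 0.15 to 0.30. With each library left out in turn these were 45 to 52, 6 to 9 and 0.16 to 0.27. The count of falls in complex IV was 1 with the filter of 1 CPM in 3 libraries and with the offset for gene span, and 1 to 3 with libraries left out. In complex III it was 1 to 2 with libraries left out. The median of complex II was 0.22 with library totals only, 0.24 with the replicate block and GC offset, and 0.39 with the gene span offset. Signs turned for Sdhc with library totals only (-0.0196) and with the replicate block and GC offset (-0.0001), and for Uqcrfs1 with the gene span offset (0.0378). With libraries left out, Sdhc ran from -0.0343 to 0.13, Uqcrfs1 from -0.12 to 0.0115 and Atp5g2 from -0.0571 to 0.29. Of 40 tested named genes, 38 could be tested under every alternative (not Cox6a2 or Atp5b), and 30 of these kept their direction and side of the threshold throughout. Among the members not named by the rule, Ndufs4, Ndufa5, Ndufa8, Ndufb11 and Atp5h, called higher, each lost that call under at least 1 alternative, which for Ndufa8 was library totals only, and Ndufs4 turned to -0.0449 with the gene span offset. The fit with the replicate block called 51 members higher and 7 lower. Same-numbered libraries did not deviate together (correlations of 0.0364, 0.00368 and -0.00843), so the numbers were not taken as pairs. Over all genes, library totals only called 3989 higher and 5111 lower, at a median of -0.08. Libraries at this depth held fewer than 30 counts of Cox6a2 each, so its fold change is uncertain. The interval given for it covers counting error only and leaves out the spread between libraries.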
